A study of Mus musculus with 4 samples.

Results

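The loci of 8 genes were examined: the transcription factors Mef2a, Mef2b, Mef2c and Mef2d, and the class IIa histone deacetylases Hdac4, Hdac5, Hdac7 and Hdac9. All peaks overlapping the stretch from 50 kb upstream of a gene's outermost start to 50 kb past its end were taken, from 1 WT and 1 Tet2 KO peak list of ATAC-seq (gene models of GENCODE M1 on mm9). This gave 40 of the 25775 WT peaks and 6 of the 3836 Tet2 KO peaks. ATAC-seq maps open chromatin through the cuts of the transposase Tn5, and a peak is a stretch with more fragments than the DNA around it.

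The series holds 2 WT and 2 Tet2 KO samples of primary myoblasts from C57BL/6 mice, with 5000 cells in each library and no treatment other than culture. The cells were satellite cells sorted from hindlimb muscle and, by the labels, grown for at least 3 days until they were MyoD+ myoblasts, and the study's methods give male mice, 8 to 10 weeks old where nothing else is said. The Tet2 KO was described as constitutive, made by deleting exon 3, so it was lost from all cells of the mouse and not from muscle stem cells alone. Tet2 oxidises methylated cytosine as a step of DNA demethylation, and the question put to these data was which chromatin loses accessibility without it.

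MEF2 proteins bind an A/T-rich site and act with MyoD to switch on muscle genes during differentiation. Class IIa deacetylases bind MEF2 directly and hold its targets silent, mainly by bringing in corepressors. Phosphorylation by calcium-dependent and related kinases makes 14-3-3 proteins export the deacetylases from the nucleus, which frees MEF2.

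Each peak list carries the code of a single library, the lists could not be tied to a replicate, and no replicate list was analysed here. WT and Tet2 KO values are therefore set side by side with no test, and the 95% Wilson intervals below cover counting error only. MACS2 numbers its peaks along the genome, and 9707 WT and 4403 Tet2 KO numbers are skipped, so called peaks are missing from each list. A missing peak below means that none is listed, not that the chromatin was closed. The background of each listed summit, in fragments, was solved from its listed values. Its most frequent value, used below as the genome background, was 0.649 in WT and 1.38, the higher of the pair, in Tet2 KO. Coverage away from peaks was not measured. Tet2 itself had 2 listed WT peaks, 1 at its promoter, and none in Tet2 KO, which does not show the deletion of the exon. Of 8 myoblast markers, Myod1, Des and Chrna1 had a promoter peak in both lists and the other 5 in neither. None of 5 fibroblast-like and none of 5 blood markers had one, and of 4 endothelial markers Pecam1 had one in WT. Over all protein-coding genes 30.4% had a WT and 7.96% a Tet2 KO promoter peak. Counts this small do not settle which cells were present.

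The WT peaks were spread over 7 of the 8 loci and the Tet2 KO peaks over 4. Peak counts in WT and Tet2 KO were 7 and 0 at Mef2a, 4 and 1 at Mef2b, 1 and 0 at Mef2c, and 9 and 1 at Mef2d. At the deacetylases they were 7 and 3 at Hdac4, 6 and 1 at Hdac5, 6 and 0 at Hdac7, and 0 and 0 at Hdac9. Mef2d had the most WT peaks and Hdac4 the most Tet2 KO peaks. With close peaks merged, Mef2d had 6 WT peaks and Hdac4 had 7. The lead of Mef2d therefore depended on counting close peaks apart. Each of the 6 Tet2 KO peaks shared at least 1 bp with a WT peak, against 96.8% of the whole Tet2 KO list. In the other direction 6 of 40 WT peaks (15%, interval 7.06 to 29.1%) had a Tet2 KO peak, against 14.1% of the whole WT list. The share at these loci was therefore close to the background.

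**Figure D1:**
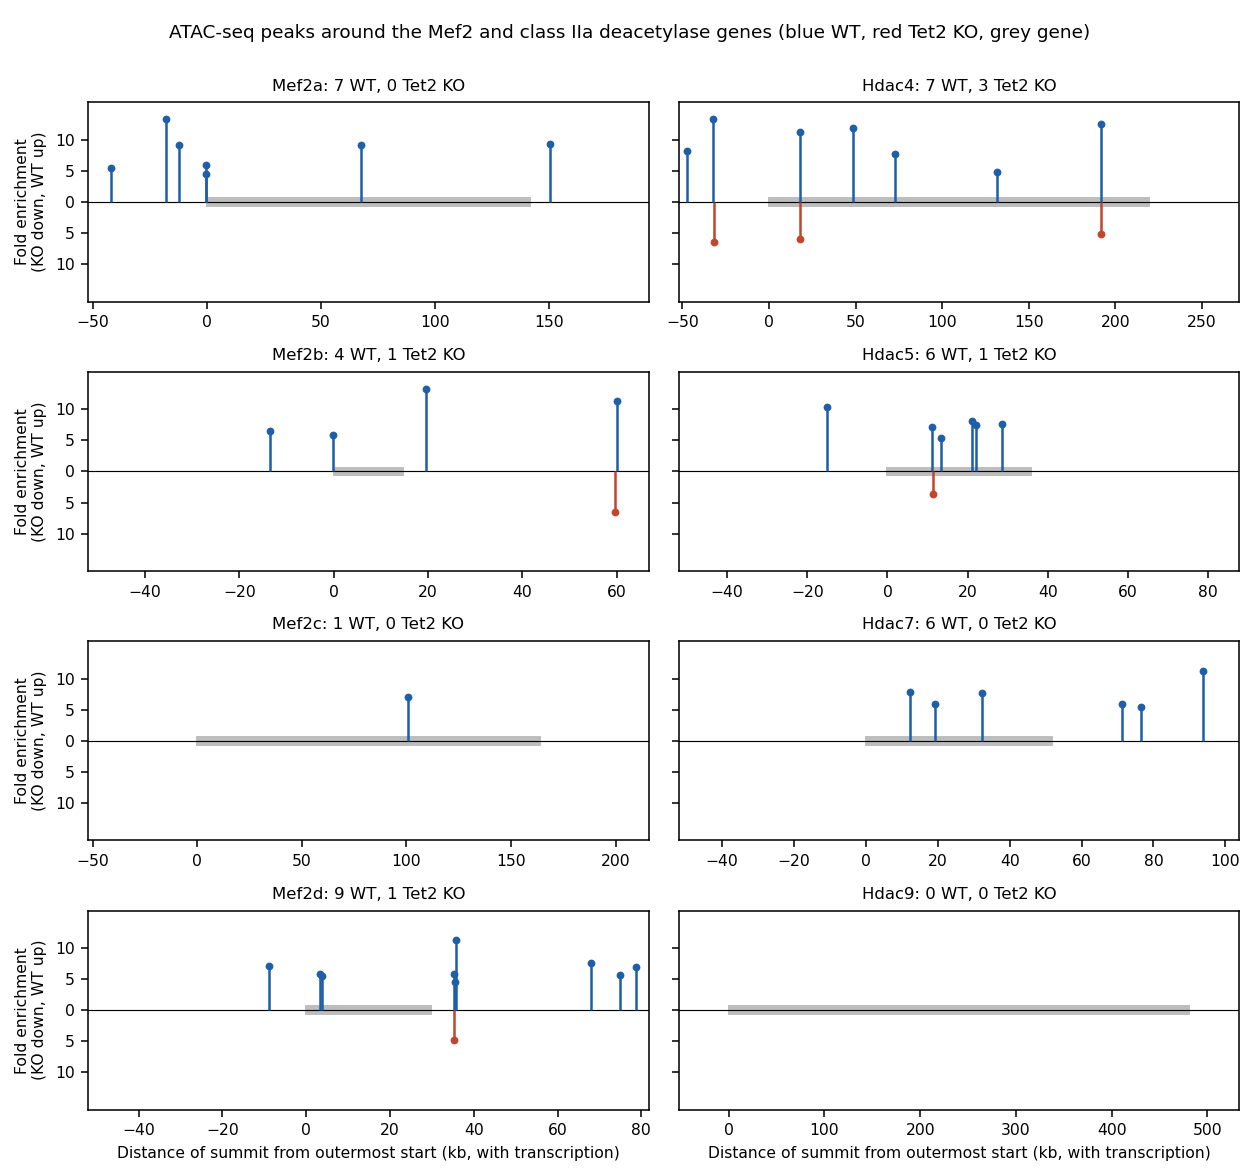
Each panel shows 1 gene (grey bar) with the peak summits by distance from the outermost annotated start in kb, counted with transcription, and the fold enrichment as the length of the line, WT (blue) upward and Tet2 KO (red) downward. Hdac4 carries 3 of the 6 Tet2 KO peaks, the one at Hdac5 lies inside the gene, those at Mef2b and Mef2d lie beyond the gene, and Mef2a, Mef2c, Hdac7 and Hdac9 have none.

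Mef2a encodes a MEF2 factor found in many tissues and needed for normal muscle regeneration. It lies on chr7:74376049-74517744, minus strand. A pair of WT peaks lay at its promoter, here 1000 bp upstream to 100 bp downstream of a start. Their summits were at -391 bp and -626 bp from the outermost start, with fold enrichments of 5.91 and 4.52. Fold enrichment is the fragment number at the summit over that of the local background, each with 1 added. These were among the lower WT peaks, with 12 and 9 fragments at the summit, in DNA with 20 and 19 CpGs within 100 bp of the summit.

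Upstream of Mef2a stood 3 intergenic WT peaks, at -12.4 kb, -18.1 kb and -42.1 kb. The peak at -18.1 kb had the highest fold enrichment of the locus, 13.3, from 25 fragments over a background of 0.96, and held an AP-1 site. At -12.4 kb the fold enrichment was 9.24 and at -42.1 kb it was 5.46, and both peaks held an E box. The Mef2a intron peak at 67.7 kb reached 9.10 and held an AP-1 site. The last WT peak, 9.29, was at the shared promoter of Lysmd4 and 1700112J16Rik beyond the end of Mef2a. None of these 7 peaks had a Tet2 KO counterpart. The nearest listed Tet2 KO peaks were 541171 bp past the end of Mef2a and 649011 bp upstream of its start, with 6 skipped Tet2 KO numbers between them.

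Mef2b, on chr8:72676677-72691387 of the plus strand, encodes the MEF2 factor best known from lymphoid cells. Its promoter had 1 WT peak, at -80 bp, with 10 fragments and a fold enrichment of 5.82. The start lies within 2310045N01Rik and the peak was also in the promoter of that gene, so the peak cannot be given to either gene alone. The other 3 WT peaks were at promoters of neighbours: Rfxank at 6.53 (a part of the factor that drives MHC class II genes), Tmem161a at 13.3 and Slc25a42 at 11.3 (a mitochondrial carrier of coenzyme A). Slc25a42 alone kept a Tet2 KO peak, at 6.60, with 20 fragments against 39 in WT. No WT peak of this locus was distal, that is intronic or intergenic.

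Mef2c encodes the MEF2 factor that rises as myoblasts differentiate, and lies on chr13:83643033-83806684, plus strand. A single WT peak was listed in its 264.0 kb window, in the intron at 100.7 kb, chr13:83743702-83743811, with 12 fragments, a background of 0.85 and a fold enrichment of 7.03. Of 1244 gene windows at least as long, 400 (32.2%) had at most 1 WT peak. No WT peak was listed at either of its annotated starts, and 2 WT numbers are skipped between the listed peaks at -296236 bp and 100669 bp from the outermost start. No Tet2 KO peak was listed, and 7 Tet2 KO numbers are skipped over the 6700 kb around it. The peak sequence is shown because both motifs that are frequent in this WT list, an AP-1 site (TGANTCA) and the E box bound by MyoD (CAGCTG), lie next to its summit.
Mef2c intron, chr13:83743648-83743848, plus strand: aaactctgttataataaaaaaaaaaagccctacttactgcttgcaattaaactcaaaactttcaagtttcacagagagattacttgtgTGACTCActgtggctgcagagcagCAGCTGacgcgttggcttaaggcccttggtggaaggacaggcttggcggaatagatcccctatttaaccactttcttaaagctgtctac
Capitals mark the AP-1 site, centred 9 bases before the summit, and the E box, 14 bases after it. The E box stands 1 base from a CpG, a distance that bears on the question of methylation beside E boxes, although no methylation was measured here.

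The study's bisulfite primers for Mef2c matched the converted mm9 sequence far upstream of the window. The amplicons were chr13:83280501-83280847, starting at -362532 bp from the Mef2c start with 5 CpGs, and chr13:83251849-83252203, at -391184 bp with 6 CpGs. Neither overlapped a listed peak of WT or Tet2 KO. The nearest WT peak was 29707 bp from the one and 1055 bp from the other. The study used bisulfite sequencing of Mef2c to check its hypermethylation in Tet2 KO myoblasts. Methylation was not measured here, and the listed peaks do not test that result.

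Mef2d encodes a broadly expressed MEF2 factor whose splice form changes in differentiating muscle. At 6.94 WT peaks per 100 kb its window (chr3:87946294-87976008 for the gene, plus strand) was the densest of the 8. This was above 97.2% of 22206 gene windows, whose median was 1.60. The 9 WT peaks of the window became 6 when close peaks were merged, and the density was not ranked again. Inside the gene were 2 WT peaks, in introns at 3.3 kb and 3.8 kb, with fold enrichments of 5.76 and 5.48 over high local backgrounds of 2.99 and 2.83. Upstream there was 1, at -8.8 kb, with 7.14. None was at the outermost start, where 3 WT numbers are skipped between -8753 bp and 3134 bp.

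The strongest WT peak of the window was past the end of Mef2d, at the promoter of the noncoding RNA gene 1700113A16Rik. This promoter had peaks of 11.3 and 4.58, and the exon one of 5.83 at 35.3 kb from the Mef2d start. The peak of 11.3, with 33 fragments, had no Tet2 KO counterpart, whereas the neighbouring exon peak, with 17 fragments, had one of 12 fragments and 4.80. The next 3 peaks, at 68.0, 74.8 and 78.7 kb, had 7.58, 5.61 and 6.88, and the last 2 lay in the gene model Gm3764. The sequence of the exon peak is shown as the single stretch near Mef2d that stayed listed in Tet2 KO.
1700113A16Rik exon near Mef2d, chr3:87981440-87981678, plus strand: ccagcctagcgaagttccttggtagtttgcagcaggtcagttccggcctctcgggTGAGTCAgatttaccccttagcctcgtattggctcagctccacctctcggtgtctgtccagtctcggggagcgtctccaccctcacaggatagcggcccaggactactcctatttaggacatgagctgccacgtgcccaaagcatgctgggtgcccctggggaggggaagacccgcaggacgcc
Capitals mark an AP-1 site, 80 bases before the WT summit and 42 bases before the Tet2 KO summit.

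Hdac4, the class IIa deacetylase best known from denervated muscle, lies on chr1:93825362-94044970, minus strand. The 7 WT peaks of its window were all distal, 5 in introns and 2 upstream. Their fold enrichments, in the order of transcription, were 8.20 at -47.5 kb, 13.4 at -32.1 kb, 11.2 at 17.7 kb, 11.9 at 48.6 kb, 7.77 at 72.9 kb, 4.79 at 132.0 kb and 12.5 at 192.0 kb. Tet2 KO peaks were listed at 3 of the 4 highest, with 6.42 at -32.1 kb, 5.87 at 17.8 kb and 5.10 at 192.0 kb. The peak at 48.6 kb, with 24 fragments and a pair of E boxes, had no Tet2 KO counterpart although its WT fold enrichment was above that at 17.7 kb. At 0.939 Tet2 KO peaks per 100 kb, the window was above 86.1% of the 22206 gene windows, of which 68.6% held no Tet2 KO peak.

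No peak of either list was at an Hdac4 start. Between the WT peaks on either side of the outermost start, at -31881 bp and 17571 bp, no WT number is skipped, so no called WT peak is missing from the list there. At the innermost start, 1 WT number is skipped between the listed peaks on either side. The Tet2 KO list likewise skips no number over the 832 kb around the Hdac4 window. By the numbering, the WT peak missing at the outermost start and the 4 missing Tet2 KO peaks were therefore not called.

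The shared Hdac4 stretches are shown because they are the distal elements that stayed listed in Tet2 KO, together with the intron peak that holds a MEF2 site.
Hdac4 intron at 192.0 kb, chr1:93852875-93853101, plus strand: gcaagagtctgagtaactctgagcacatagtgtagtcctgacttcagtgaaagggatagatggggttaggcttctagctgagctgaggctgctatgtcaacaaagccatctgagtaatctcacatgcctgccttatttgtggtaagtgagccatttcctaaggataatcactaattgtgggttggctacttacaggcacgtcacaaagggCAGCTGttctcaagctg
Hdac4 intron at 17.7 kb, chr1:94027069-94027367, plus strand: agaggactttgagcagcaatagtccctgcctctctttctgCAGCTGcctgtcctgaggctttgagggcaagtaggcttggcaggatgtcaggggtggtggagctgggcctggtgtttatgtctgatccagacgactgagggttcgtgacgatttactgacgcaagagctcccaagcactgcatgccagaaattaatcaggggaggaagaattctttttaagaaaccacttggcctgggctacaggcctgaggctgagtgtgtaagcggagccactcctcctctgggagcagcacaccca
Hdac4 upstream at -32.1 kb, chr1:94076923-94077160, plus strand: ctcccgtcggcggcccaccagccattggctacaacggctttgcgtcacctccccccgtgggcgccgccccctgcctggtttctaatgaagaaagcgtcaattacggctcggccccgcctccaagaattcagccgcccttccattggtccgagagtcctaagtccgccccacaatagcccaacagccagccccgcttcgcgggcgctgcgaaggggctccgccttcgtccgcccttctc
Hdac4 intron at 72.9 kb, chr1:93971989-93972189, plus strand: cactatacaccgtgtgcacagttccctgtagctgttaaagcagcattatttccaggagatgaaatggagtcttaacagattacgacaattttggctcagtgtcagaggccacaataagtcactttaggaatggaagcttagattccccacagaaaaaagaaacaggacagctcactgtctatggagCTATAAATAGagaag
Capitals mark E boxes in the intron stretches at 192.0 and 17.7 kb and the MEF2 site in the last. Both E boxes were within 100 bp of the Tet2 KO summit, at 86 and -24 bases, but not of the WT summit, as the summits were 26 and 166 bp apart. The upstream stretch had none of the 3 motifs and 19 CpGs within 100 bp of its WT summit, the most of any distal peak at the 8 loci. The MEF2 site of the intron at 72.9 kb was centred 90 bases from a summit of 14 fragments.

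Hdac5 encodes a deacetylase that leaves the nucleus on phosphorylation by CaMK and protein kinase D during muscle differentiation. It lies on chr11:102055746-102091480, minus strand, and 5 of the 6 WT peaks of its window were inside the gene. The outermost start had none, with 1 WT number skipped between -14823 bp and 11084 bp. Promoters of internal starts had 2 WT peaks. The one with 7.17, summit at 11.2 kb, was at the start of a protein-coding transcript and of a pair of retained-intron transcripts, and the one with 7.69 at 28.6 kb was at the start of a retained-intron transcript.

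The internal promoter at 11.2 kb was the single member promoter with a Tet2 KO peak, of 13 fragments and a fold enrichment of 3.63, against 21 fragments in WT. This was the weakest Tet2 KO peak of the 8 loci, with a -log10 q of 2.18. The intron peaks at 13.4, 21.1 and 22.2 kb had 5.37, 8.02 and 7.39, and the intergenic peak at -15.1 kb, nearer to the start of BC030867, had 10.3 and a pair of AP-1 sites. None of these 4 had a Tet2 KO peak. The shared internal promoter and the intron peak at 22.2 kb are shown because each holds a MEF2 site together with an E box.
Hdac5 internal promoter, chr11:102080243-102080377, plus strand: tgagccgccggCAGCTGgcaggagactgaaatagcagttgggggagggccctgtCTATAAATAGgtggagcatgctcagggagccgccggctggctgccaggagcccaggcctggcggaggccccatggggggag
Hdac5 intron at 22.2 kb, chr11:102069204-102069404, plus strand: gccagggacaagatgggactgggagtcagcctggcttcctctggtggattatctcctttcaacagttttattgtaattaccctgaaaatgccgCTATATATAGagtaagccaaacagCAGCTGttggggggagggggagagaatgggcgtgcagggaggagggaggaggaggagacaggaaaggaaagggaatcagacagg
Capitals mark the E box and the MEF2 site. In the internal promoter the E box stood 1 base from a CpG and the MEF2 site was centred 24 bases from the WT summit and 77 from the Tet2 KO summit. In the intron the MEF2 site was 3 bases from the summit, the closest of all, and was followed by an E box at 19 bases.

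Hdac7, a class IIa deacetylase known from the vascular endothelium that is also exported as myoblasts differentiate, lies on chr15:97623095-97674933, minus strand. It had 6 WT peaks and no Tet2 KO peak. Inside the gene were 3: an internal promoter shared by several transcripts at 12.1 kb with 7.77, and introns at 19.3 kb with 5.96 and at 32.2 kb with 7.65. The other 3 were nearer to Rapgef3, which encodes an exchange factor activated by cyclic AMP, 2 of them at its promoters (11.3 and 5.41) and 1 intergenic (5.85). At the outermost start of Hdac7 none was listed, with 1 WT number skipped between -69750 bp and 12035 bp. The intron peak at 32.2 kb is shown because it holds 3 E boxes and a MEF2 site within 100 bp of its summit, more than any other peak of the 8 loci.
Hdac7 intron at 32.2 kb, chr15:97642659-97642859, plus strand: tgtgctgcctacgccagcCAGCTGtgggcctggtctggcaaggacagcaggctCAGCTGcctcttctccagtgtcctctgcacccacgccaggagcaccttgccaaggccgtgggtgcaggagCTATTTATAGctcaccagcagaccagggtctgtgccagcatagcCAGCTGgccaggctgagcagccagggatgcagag
Capitals mark the E boxes, centred at -80, -45 and 69 bases from the summit, and the MEF2 site at 27 bases.

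Hdac9, whose short splice form lacks the deacetylase domain and whose transcription is itself driven by MEF2, had no listed peak in a window of 581.0 kb (gene chr12:34732451-35213754, minus strand). The nearest listed WT peaks were 667258 bp past its end and 518076 bp upstream of its start, with 1 WT number skipped between them. Of 217 gene windows at least as long, 60 (27.6%) had no WT peak. Windows of this length without a WT peak were thus not rare.

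The fold enrichment of the WT peak went with the listing of a Tet2 KO peak, at these loci as in the whole list. Of the 10 WT peaks with a fold enrichment of at least 10, a limit set after the values were seen, 4 had a Tet2 KO peak, against 38.8% of such peaks in the whole WT list. Of the 30 below it, 2 did (6.67%), against 6.39%. The 6 high peaks with no Tet2 KO peak were those at -18.1 kb of Mef2a, Tmem161a, 1700113A16Rik, 48.6 kb of Hdac4, -15.1 kb of Hdac5 and Rapgef3. By feature, 3 of 24 distal WT peaks had a Tet2 KO peak, against 11.0% of the distal WT list, and 2 of 14 promoter peaks did, against 22.5%. MEF2 loci kept 2 of 21 WT peaks and deacetylase loci 4 of 19 (21.1%, interval 8.51 to 43.3%), a difference that was not tested and whose intervals overlap. Both peaks kept at MEF2 loci were at neighbouring genes, Slc25a42 and 1700113A16Rik. Of the 4 at deacetylase loci, 3 were at Hdac4.

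**Figure D2:**
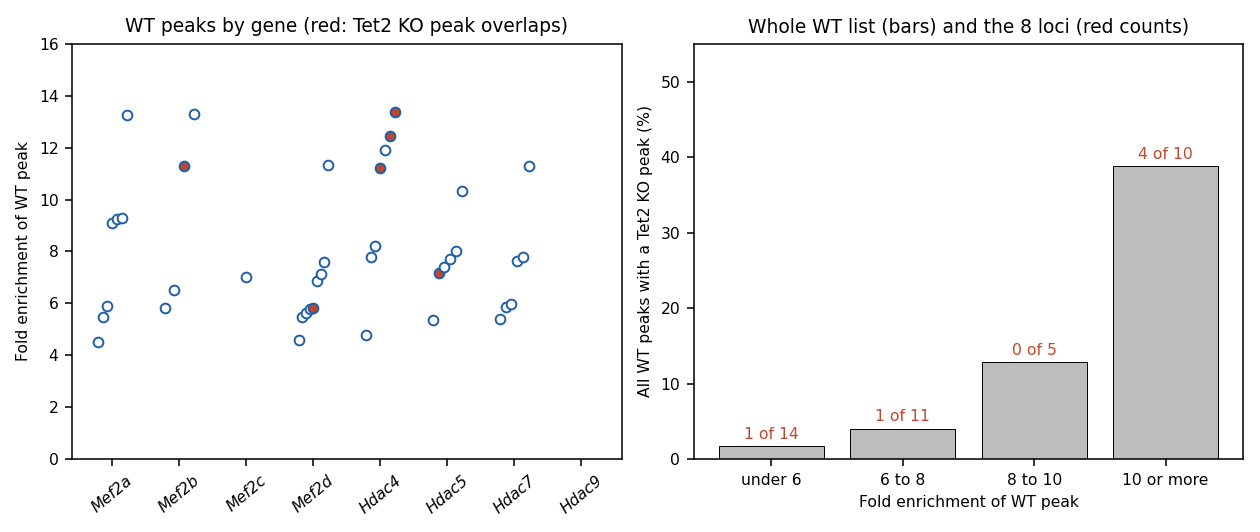
Left, fold enrichment of each WT peak by gene, filled red where a Tet2 KO peak overlaps. Right, the percent of all WT peaks that have a Tet2 KO peak, by class of fold enrichment (grey bars), with the count at the 8 loci in red. The share rises from 1.70% under a fold of 6 to 38.8% at 10 or more, and 4 of the 6 shared member peaks are in the top class.

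Several properties of the lists stood beside these counts. The Tet2 KO library had 2.13 times the WT genome background, and the 34 WT member peaks with no Tet2 KO peak had 7 to 33 fragments at the summit. The lowest -log10 q was 2.18 in the WT list and 0.863 in the Tet2 KO list, where 55 peaks were under 2, so the lists do not share a q limit. The part of coverage, of the peak limit and of the choice of listed peaks in the missing Tet2 KO peaks was not tested.

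Where both lists had a peak, the WT one had the higher fold enrichment in 6 of 6 pairs. The ratio of WT to Tet2 KO was 1.21 at the 1700113A16Rik exon, 1.71 at Slc25a42, 1.98 at Hdac5 and 1.91, 2.08 and 2.44 at Hdac4 (17.7 kb, -32.1 kb and 192.0 kb). Their median was 1.94, against 1.89 over all 3722 overlapping pairs, of which 98.1% were above 1. The ratio at these loci was thus close to that of the whole list.

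Fragments above the local background, in multiples of each library's genome background, gave larger ratios of 3.09 to 5.53, with a median of 4.36 against 4.14 over all pairs. At the Hdac4 upstream stretch this height was 57.0 in WT and 11.0 in Tet2 KO. At the Hdac5 internal promoter it was 29.2 and 7.33. In raw fragments the WT summits had 17 to 39 and the Tet2 KO summits 12 to 20.

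**Figure D3:**
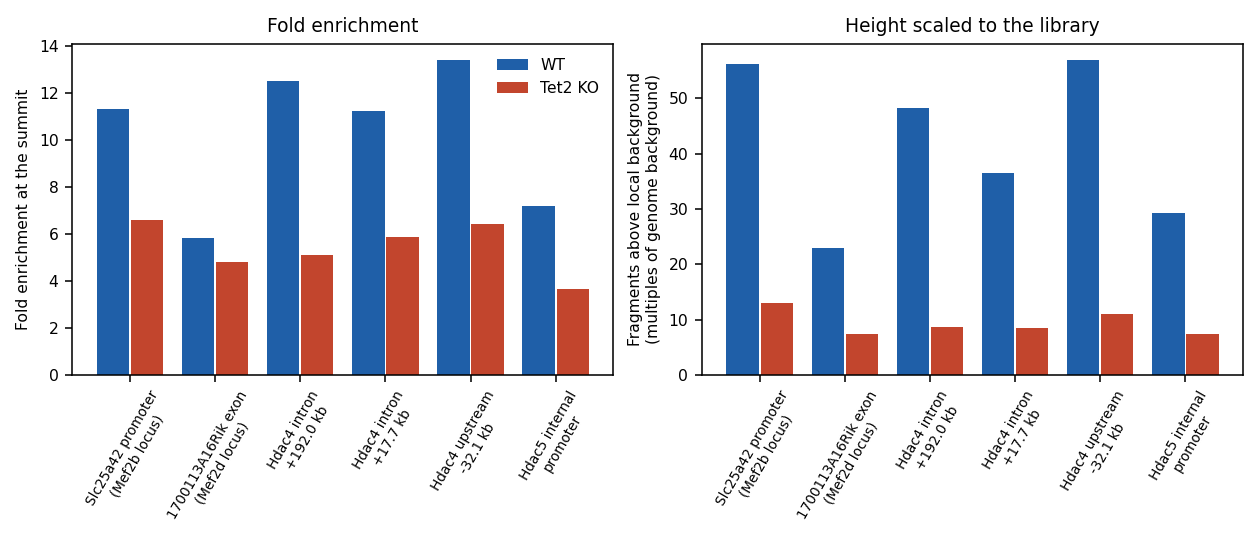
The 6 overlapping pairs, WT in blue and Tet2 KO in red, with 1 library each. Left, fold enrichment at the summit; right, fragments above the local background in multiples of the genome background of that library. The WT bar is the higher one in each pair, least so at the 1700113A16Rik exon (5.83 and 4.80).

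The motifs were searched on both strands within 100 bp of each summit: the E box CAGCTG, the AP-1 site TGANTCA and the MEF2 site by its usual degenerate consensus. Among the 24 distal WT peaks of the 8 loci, 8 (33.3%, interval 18.0 to 53.3%) held an E box, against 39.8% of all distal WT peaks. The AP-1 site was also in 8 (33.3%), against 44.8%. A MEF2 site was in 3 of 24 (12.5%, interval 4.34 to 31.0%), against 3.15%. This share rests on 3 peaks, and with windows of 100 kb (9.09%, interval 3.14 to 23.6%) or a -log10 q of at least 10 (1 of 11, interval 1.62 to 37.7%) its interval reached the background. The loci and the motif were both taken for their link to MEF2.

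With the Hdac5 internal promoter, 4 of the 40 WT peaks held a MEF2 site, against 2.45% of all WT peaks, 1 at Hdac4, 2 at Hdac5 and 1 at Hdac7. None of the 21 WT peaks at the MEF2 genes did, a count that says little at so low a background. No difference between the MEF2 and the deacetylase genes was tested. Read on one strand, 3 of the 4 sites had the same letters, CTATAAATAG, and the intron of Hdac5 had CTATATATAG. Those 3 also hold the letters TATAAA of a TATA box. An E box accompanied the MEF2 site in 3 of the 4 peaks, all but that of Hdac4. A match is a stretch of letters, and binding by MEF2 was not measured here.

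**Figure D4:**
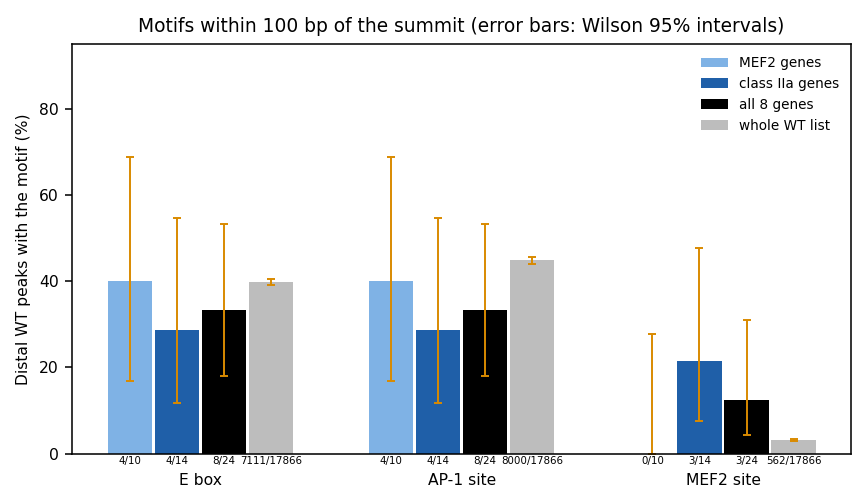
Percent of distal WT peaks with each motif within 100 bp of the summit, for the MEF2 genes, the class IIa genes, all 8 genes and the whole WT list, with 95% Wilson intervals and the counts below. For the E box and the AP-1 site the intervals of all 8 genes include the share of the whole list, and for the MEF2 site the 3 peaks are all at class IIa genes.

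Methylation next to E boxes was a theme of the study, so the distance from each E box to the closest CpG was measured in the mm9 sequence. Of the 15 E boxes in WT peaks of the 8 loci, 6 had a CpG within 10 bases. Among distal peaks it was 4 of 11 (36.4%), against 2584 of 9052 (28.5%) in the whole distal list. The nearest were those of Mef2c and the Hdac5 internal promoter, named above, and one of the pair in the Hdac4 intron at 48.6 kb, which stood directly beside a CpG. Of these 3, the Hdac5 peak was listed in Tet2 KO and the other 2 were not.

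Of the 40 WT peaks, 14 had a fold enrichment under 6, against 4237 of the 25775 in the whole list, so weak peaks were more frequent here. By medians the 40 WT peaks were nearer to the list. Their median fold enrichment was 7.48 (7.89 in all WT peaks), with 15 fragments at the summit (16), a width of 192 bp (212 bp), 4 CpGs (3) and a GC content of 58.0% (53.2%) within 100 bp of the summit. By position, 15 were in introns, 14 at promoters, 9 intergenic and 2 in noncoding exons. In the whole WT list 7046 of the 25775 peaks were at promoters. Distal peaks made up 24 of the 40 (interval 44.6 to 73.7%), against 69.3% of the whole list. The distal share was thus lower here, but its interval included that of the list. Of the 14 promoter peaks 6 were at promoters of the 8 genes and 8 at those of neighbours.

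Promoter peaks of the pathway were counted next, on any annotated start of a gene. In WT 4 of the 8 members had one (Mef2a, Mef2b, Hdac5 and Hdac7), against 30.4% of protein-coding genes. In Tet2 KO Hdac5 had one, against 7.96%. Of the 64 other genes of the pathway, 43 (67.2%) had a WT and 14 (21.9%) a Tet2 KO promoter peak. These lists hold many broadly used genes. They were also chosen with earlier results of these data known, and no test was made of them.

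Upstream of the deacetylases, 9 of 15 kinases that phosphorylate them (the CaMK, protein kinase D, salt-inducible and MARK families) had a WT promoter peak and none had one in Tet2 KO. The 14-3-3 proteins, which carry the phosphorylated deacetylases out of the nucleus, had 5 of 7 in WT and 4 of 7 in Tet2 KO (Ywhab, Ywhag, Ywhaq and Ywhaz). Of all protein-coding genes with a WT promoter peak, 25.8% also had one in Tet2 KO. The kinases and the 14-3-3 proteins were at the ends of the range of the lists in this respect (the MEF2 factors and the other deacetylases also had none). The difference between them was not tested. Of the kinases and calcineurin subunits that act on MEF2 itself, 6 of 8 had a WT peak, and Mapk14 (p38 alpha) and Ppp3ca (a catalytic subunit of calcineurin) also had one in Tet2 KO.

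Among the partners on DNA, 3 of 6 corepressors had a WT promoter peak and Ctbp1, which class IIa deacetylases recruit, was listed in Tet2 KO. Of 7 coactivators 4 had a WT peak, and 3 of these a Tet2 KO peak: Carm1, an arginine methyltransferase, Ncoa2, a p160 coactivator, and Mamstr, a MEF2-binding activator of muscle genes. MEF2 target genes had the highest share, 13 of 15 in WT, without Myom1 and Myoz1. Of these 13, Des, Jun, Klf2 and Xirp1 had a Tet2 KO promoter peak, encoding desmin, a subunit of AP-1, a Kruppel-like factor and an actin-binding muscle protein. The other zinc-dependent deacetylases had 3 of 6 in WT and none in Tet2 KO.

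**Figure D5:**
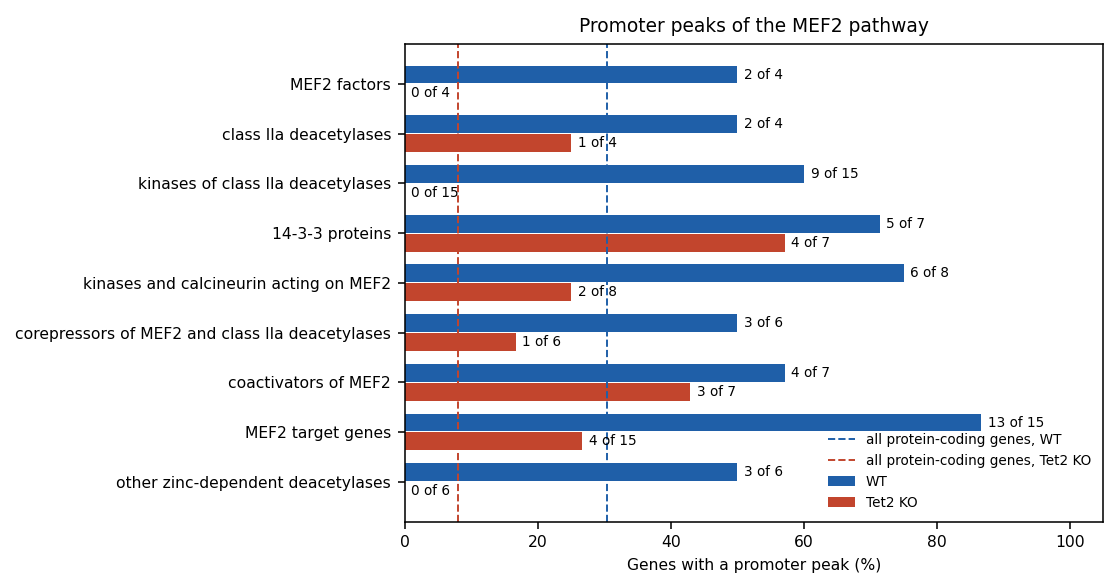
Percent of genes in each pathway list with a promoter peak in WT (blue) and Tet2 KO (red), with counts beside the bars and dashed lines at the share of all protein-coding genes (30.4% and 7.96%). The WT bars all lie above the WT line, and the Tet2 KO bars range from 0 of 15 kinases to 4 of 7 14-3-3 proteins. The lists were chosen with earlier results of these data known.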

How the data were processed

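The labels describe 2 WT and 2 Tet2 KO ATAC-seq samples. Per the study's methods, paired reads cut to 36 bp were mapped to mm9 (Bowtie2), those with a mapping quality under 30 and Picard duplicates were dropped, and MACS2 called the peaks of each sample, with a stated q of 0.01. The WT list keeps to this limit, but 55 Tet2 KO peaks have a -log10 q under 2 and the lowest -log10 p there is 4.01, so the limits of the lists differ. CASAVA, Bowtie2, MACS2 and mm9 are also in the submitters' processing notes, and versions are not given in the sources used here. What was analysed is 1 WT and 1 Tet2 KO peak list, assigned to genotypes by list name and peak total. For each peak the authors deposited a score, the fold enrichment of the summit over its local background (a ratio), and its -log10 p and -log10 q. The other column holds the summit's distance from the peak start, in bp, as deposited.

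From these, fragment numbers of the summit and of its background were solved by the Poisson formula of MACS2 within 0.001 of -log10 p, for all peaks. Of the peaks at the 8 loci, 1, in an Hdac7 intron, had more than 1 solution, and its fragment number is not given. The solver, the overlaps and the motif search were checked on simulated data. Gene models are GENCODE M1 and sequences NCBIM37, which is mm9. Features were assigned at the peak centre, in the order promoter, exon, intron, intergenic. Both annotated Hdac4 models were joined. The members and lists were chosen with earlier results of these data known. All peaks of the 8 loci were named by rule, with genes of the other lists named where they had a Tet2 KO promoter peak or, among targets, none. Alternatives were higher minimums of -log10 q or fold enrichment, other windows, promoters, overlaps and motif stretches, merged peaks, and assignment by the nearest start. The tools were pysam 0.24.0, scipy 1.17.1, numpy 2.4.6, pandas 2.3.3, matplotlib 3.10.9 and Python 3.11.15.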

Additional observations from a re-analysis of the deposited data

How the results depend on the processing

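No paired analysis was possible because the single list of a genotype carries no replicate number, and no replicate could be left out. Of the 40 WT peaks 18 were left at a minimum -log10 q of 10, against 14060 of the 25775 in the whole WT list. With 10 kb on either side of the gene 26 were left. Of the 6 Tet2 KO peaks 3 remained at a -log10 q of at least 5, a limit that kept 58.4% of the whole Tet2 KO list. There, 8.57% of the WT peaks at the loci had a Tet2 KO peak, against 9.03% of the whole WT list. At a limit of 10, which kept 13.2% of the whole Tet2 KO list, 0 of the 6 remained. The share of WT peaks with a Tet2 KO peak was then 0% (0 of 18, interval up to 17.6%), against 3.41% of the whole WT list. Genes with a WT promoter peak fell from 4 to 2 at a -log10 q of at least 10, and the single gene with a Tet2 KO promoter peak went to 0 at limits of 5 and 10 and at a fold enrichment of at least 5. All settings other than the limit of 10 gave shares of WT peaks with a Tet2 KO peak of 8.57% to 17.2%. The motif shares stayed within the intervals given above under every alternative tried, but the interval of the MEF2 site reached the share of the whole list with windows of 100 kb (lower end 3.14%) and at a -log10 q of at least 10 (lower end 1.62%, against 3.20% of the list at that limit). Of 112 counts for single genes, 20 became lower and 2 higher by more than 1.5 times. At a -log10 q of at least 10, Mef2d kept 1 WT peak and Hdac4 kept 5. Merging close peaks left 6 WT peaks at Mef2d and 7 at Hdac4, so Mef2d no longer had the most. Under no alternative did a gene have more Tet2 KO than WT peaks (0 of 56). A WT peak that is not listed may have been called, and depth is known from the listed summits alone.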
